A study of Mus musculus with 14 samples.

Results

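Glycolysis breaks glucose down to pyruvate, and a small set of transporters and enzymes then decides whether the carbon leaves the cell as lactate or enters the mitochondria. A list of 32 mouse genes of this route was followed here: hexokinases, the enzymes of upper and lower glycolysis, lactate dehydrogenases, glucose and lactate transporters, pyruvate dehydrogenase kinases, and the enzymes that make or remove fructose 2,6-bisphosphate. Genes were matched by symbol to the array's platform annotation, and 28 of the 32 had a probe set, 1 for each gene, among 22206 tested probe sets that named 19505 symbols. Gpi1, Eno1, Pfkfb1 and Pfkfb2 were not analysed here. In all 14 arrays, each of the 28 measured genes exceeded the negative controls' median.

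The cells were mouse hematopoietic progenitor cells (HPCs), bone marrow cells depleted of mature lineages, that were kept in culture before retrovirus was added on retronectin-coated plates. The donor mice were wild type for Polg (Polg wt/wt, WT), heterozygous (Polg wt/mut, Het) or homozygous (Polg mut/mut, Hom) for a mutant allele of this gene, which encodes the catalytic subunit of the mitochondrial DNA polymerase. The virus, made by GP+E86 packaging cells, was either MSCV-IRES-YFP, which carries only the fluorescent marker (Ctrl), or MSCV-NMyc-IRES-YFP, which carries N-Myc and the marker (NMyc). WT and Het cells with Ctrl were measured on 3 arrays per genotype, and Hom cells with Ctrl and all 3 genotypes with NMyc on 2 each. Every group was transduced, and the viral promoter is active in any transduced cell, whatever its lineage. The age and sex of the mice, the number of mice behind an array, the time after transduction and any sorting for the marker are not stated in the labels. The labels call the arrays biological replicates without naming separate animals, so each p-value here reflects only how far these samples differ, which may be technical.

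The first and committed steps of glycolysis are run by hexokinase and phosphofructokinase, each of which comes in several isozymes with their own tissue pattern. Lactate dehydrogenase turns pyruvate into lactate and regenerates NAD+, monocarboxylate transporters carry lactate across the cell membrane, and pyruvate dehydrogenase kinases restrain the entry of pyruvate into the mitochondria. Many of these genes are known targets of the MYC family and of the hypoxia-inducible factor HIF-1, both of which bind short DNA sequences that share the letters ACGTG.

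Promoters of the members with the largest rises among the lactate genes and the largest fall among the glycolytic enzymes are given to show where these letters lie. Each window runs from 250 bases before to 50 bases after an annotated start, is read from RefSeq on assembly GRCm38.p6, and is written 5′ to 3′ on the plus strand, which is the gene's strand. Capitals mark the E-box CACGTG, the core sequence bound by MYC proteins, and ACGTG or its reverse complement CACGT where it lies outside an E-box.
Slc16a1 (chr3:104638414-104638713): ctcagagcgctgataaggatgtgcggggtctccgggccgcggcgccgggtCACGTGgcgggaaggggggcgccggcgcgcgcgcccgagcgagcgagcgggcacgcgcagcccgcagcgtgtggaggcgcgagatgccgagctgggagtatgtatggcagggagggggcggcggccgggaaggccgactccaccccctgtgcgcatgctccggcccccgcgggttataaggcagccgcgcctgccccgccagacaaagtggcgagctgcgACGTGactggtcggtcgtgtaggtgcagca
Ldha (chr7:46845554-46845853): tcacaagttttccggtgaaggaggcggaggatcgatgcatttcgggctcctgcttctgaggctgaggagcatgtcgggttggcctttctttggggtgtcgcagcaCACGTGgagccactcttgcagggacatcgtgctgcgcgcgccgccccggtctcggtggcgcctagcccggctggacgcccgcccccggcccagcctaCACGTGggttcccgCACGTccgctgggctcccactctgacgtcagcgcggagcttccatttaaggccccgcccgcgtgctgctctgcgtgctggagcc
Aldoc (chr11:78322823-78323122): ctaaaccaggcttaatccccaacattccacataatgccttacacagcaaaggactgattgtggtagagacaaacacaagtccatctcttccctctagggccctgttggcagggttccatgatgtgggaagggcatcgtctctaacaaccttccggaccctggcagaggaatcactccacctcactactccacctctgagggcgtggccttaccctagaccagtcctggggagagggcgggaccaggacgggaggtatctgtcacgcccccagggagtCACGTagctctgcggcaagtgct
The Slc16a1 window held an E-box 200 bases before the start and ACGTG at base 21 after it. The Ldha window held E-boxes 145 and 48 bases before the start and CACGT 34 bases before it. The Aldoc window held no E-box, and its CACGT lay at base 28 after the start. Ldha and Aldoc each have another annotated start, and their windows there (chr7:46846832-46847131 and chr11:78323948-78324247) held 0 matches to these letters, so the windows shown are those with a match. A promoter entry was found for 27 of the 28 measured members. An E-box was present in at least 1 window of 5 of these 27 (18.5%), against 8.09% of 27025 genes. ACGTG on either strand, counted with those inside E-boxes, was present in 17 of 27 (63.0%), against 21.8% of all genes. The 5 members with an E-box were Pfkm, Ldha and Slc16a1, which rose with N-Myc on average, Pdk2, which fell, and Pfkfb3, which did not pass. ACGTG was found in 7 of 11 members that rose, in 3 of the 4 with an entry that fell, and in 7 of 12 that did not pass. A match to these letters is a description of the window and not a binding site.

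Values are the deposited log2 signals, and a difference of 1 is a 2-fold change. They compare arrays for the same gene and carry no order between genes, since each probe set has its own brightness. Array medians lay between 6.29 and 6.38, pairs of arrays correlated at 0.958 to 0.994, and positive controls exceeded negative controls by 3.60 to 4.17 with Ctrl and by 4.04 to 4.52 with NMyc. Mycn, read first as the check of the vector labels, ranged from 7.43 to 9.77 over 8 Ctrl arrays and from 12.15 to 12.38 over 6 NMyc arrays. The value of 9.77 belongs to the array labelled Hom-Ctrl replicate 1, while the other 7 Ctrl arrays read 7.43 to 7.76. Its level lies between both vectors, so what this sample holds is in doubt, and it is 1 of the 2 arrays behind every Hom value with Ctrl. Without it, limma called 13 members rather than 16 for the averaged N-Myc effect, losing Pfkm, Tpi1 and Pdk3, and 5 rather than 7 in Hom, losing Pfkl and Ldha. For Hom against Het with Ctrl it then called 0 rather than 1, and for Hom against WT with Ctrl 0 as before. Aldoa, Gapdh, Pkm and Ldha had means past the 99th percentile over all probe sets and arrays (11.89), where a bright probe set can compress a difference.

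N-Myc moved the members in both directions. Averaged over the 3 genotypes, 11 of 28 rose and 5 fell at an adjusted p under 0.05 (limma, Benjamini-Hochberg over all tested probe sets), while 12 did not pass. Across all probe sets 33.6% passed, 18.2% upward and 15.5% downward, against 39.3% and 17.9% of the members. The downward share of the members was thus near that of all probe sets. Counts by role, given below, cover few members each and are to be read beside these shares. The members' median difference was 0.11, against -0.02 for all probe sets. In 5 members every NMyc array lay above every Ctrl array (Slc16a1, Pfkl, Ldha, Hk2 and Gapdh), which 10.5% of all probe sets did. In 5 others every NMyc array lay below every Ctrl array (Slc2a3, Aldoc, Hk3, Pdk2 and Pfkfb4), which 6.58% of all probe sets did. The arrays of the other 18 members overlapped between the vectors. Consecutive sample codes in the labels fall into 3 runs, which the labels do not call batches. Within runs, where 5 NMyc and Ctrl pairs of a genotype can be compared, all 11 members that rose were higher and all 5 that fell were lower in every pair. The smallest of these differences was 0.000133, for Ldhb in Het. Their size differed between runs for some members. In WT, runs 2 and 3 gave 0.04 and 1.06 for Tpi1, 0.15 and 1.43 for Pfkl, and -2.23 and -0.32 for Aldoc. For Slc16a1 in WT they gave 1.60 and 1.46. The same arrays gave the calls, so this agreement is not independent of them, and its share over all probe sets was not counted.

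**Figure D1:**
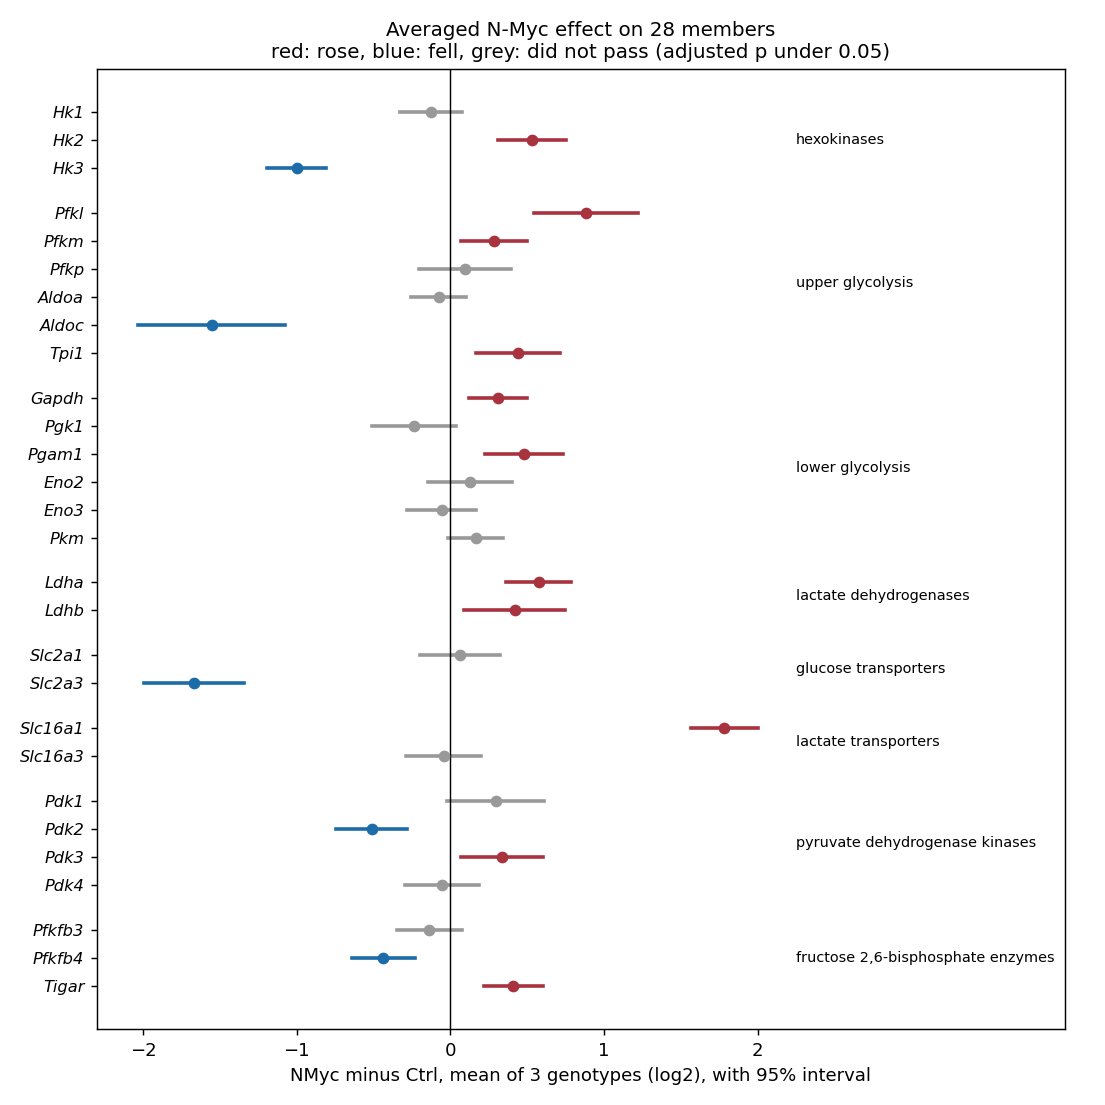
The N-Myc effect on the 28 measured members, ordered by role, is plotted as the log2 difference between NMyc and Ctrl arrays averaged over 3 genotypes (point) with its 95% interval (line). Red marks the 11 members that rose, blue the 5 that fell and grey the 12 that did not pass; Slc16a1 (1.78) and Slc2a3 (-1.67) lie at the ends.

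Hexokinases trap glucose in the cell by phosphorylating it, and of the 3 isozymes 1 rose, 1 fell and 1 did not pass. Hk2, the inducible and mitochondria-bound isozyme, read 9.13, 9.49 and 9.15 in WT-Ctrl, 9.16, 9.31 and 8.79 in Het-Ctrl and 9.05 and 9.34 in Hom-Ctrl. In the NMyc arrays it read 9.82 and 9.76 (WT), 9.85 and 9.67 (Het) and 9.56 and 9.61 (Hom). The 2 vectors did not overlap, and the lowest NMyc value lay just above the highest Ctrl value. The averaged rise was 0.53 (SE 0.10, 1.44-fold, limma adjusted p = 0.000672). Hk3, an isozyme known from myeloid cells, fell. It read 10.03, 10.40 and 10.25 in WT-Ctrl, 10.18, 10.35 and 10.25 in Het-Ctrl and 9.78 and 10.12 in Hom-Ctrl. The NMyc arrays read 9.14 and 9.07 (WT), 9.03 and 9.14 (Het) and 9.21 and 9.26 (Hom). Every NMyc array was lower than every Ctrl array. Hk3 fell by 1.00 (SE 0.09, 2.00-fold, adjusted p = 3.48e-07). Hk1, the broadly expressed isozyme, spanned 10.73 to 11.20 with Ctrl and 10.71 to 11.01 with NMyc, and its difference of -0.13 did not pass (adjusted p = 0.357).

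Markers of mature blood cells moved with N-Myc as well. Of the monocyte and macrophage list 9 of 9 measured genes fell, and their mean log2 signal was 8.86 to 10.20 with Ctrl and 7.83 to 7.99 with NMyc. Of the neutrophil list 9 of 13 fell and 3 rose, with mean signals of 11.20 to 11.88 and 10.56 to 10.75. Mast cell and basophil genes (7 of 9 fell, 1 rose) and megakaryocyte genes (7 of 7 fell) were lower too, eosinophil genes fell in 4 of 7, and stem and progenitor genes fell in 4 of 7. The mean of 5 erythroid genes was higher, at 6.14 to 6.54 with Ctrl and 6.62 to 6.83 with NMyc, with 1 of 5 called up. Only Tfrc separated between vectors (7.83 to 9.31 with Ctrl and 9.84 to 10.73 with NMyc), while Klf1, Epor, Alas2 and Car1 overlapped. Few genes passed of the B lymphoid (1 of 6, up), T and NK (1 of 7, down) and stromal and endothelial lists (1 of 8, down), whose means overlapped between vectors. Over all probe sets, 18.2% rose and 15.5% fell. In bulk RNA, fewer cells of a type and less RNA per cell cannot be told apart, and the part of these lineages in the changes of Hk3 or any other member was not tested. Among the defining genes of progenitors, Kit was at 9.40 to 10.10 with Ctrl and 9.09 to 10.07 with NMyc, and Cd34 at 9.33 to 9.70 and 8.14 to 9.21. Flt3 was above the median of the negative controls in only 4 of 8 Ctrl and 3 of 6 NMyc arrays.

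In upper glycolysis 3 of 6 measured members rose, Pfkl, Pfkm and Tpi1, and 1 fell, Aldoc. The averaged differences of all 3 phosphofructokinases were positive and those of both aldolases negative, and differences between isozymes were not tested. Phosphofructokinase makes the committed step, and Pfkl, its liver-type subunit, rose. It read 9.25, 9.82 and 8.69 in WT-Ctrl, 9.51, 9.87 and 9.04 in Het-Ctrl, and 8.70 and 8.93 in Hom-Ctrl. Under NMyc the values were 9.97 and 10.12 (WT), 10.30 and 10.10 (Het), and 9.89 and 10.002 (Hom). All NMyc arrays lay above all Ctrl arrays, and the Ctrl arrays were the more spread out. The averaged rise was 0.88 (SE 0.16, 1.84-fold, adjusted p = 0.000364). Pfkm, the muscle-type subunit, spanned 6.85 to 7.48 with Ctrl and 7.28 to 7.85 with NMyc, and rose by 0.28 (SE 0.10, 1.22-fold, adjusted p = 0.0416), a call lost under 14 of 24 alternative settings. Pfkp, the platelet-type subunit, spanned 10.64 to 11.49 and 10.94 to 11.39, and its difference of 0.10 did not pass (adjusted p = 0.666).

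Aldolases split the 6-carbon sugar. Aldoc, the isozyme best known from brain, fell by 1.55 (SE 0.23, 2.94-fold, adjusted p = 4.53e-05). It read 9.69, 10.17 and 8.45 in WT-Ctrl, 10.10, 10.19 and 9.38 in Het-Ctrl, and 8.88 and 9.70 in Hom-Ctrl. With NMyc it read 7.94 and 8.13 (WT), 8.21 and 8.22 (Het), and 7.83 and 7.56 (Hom). The lowest Ctrl array, WT-Ctrl replicate 3, still lay above the highest NMyc array. Aldoa, the main isozyme of muscle and many dividing cells, spanned 12.36 to 12.73 with Ctrl and 12.45 to 12.54 with NMyc (difference -0.08, adjusted p = 0.554). Tpi1, which interconverts the 3-carbon products, had a Ctrl median of 11.15 (10.60 to 11.58) and an NMyc median of 11.55 (11.51 to 11.66), and rose by 0.44 (SE 0.13, 1.36-fold, adjusted p = 0.0143). Without the array labelled Hom-Ctrl replicate 1 the rise of Tpi1 was 0.38 and its adjusted p 0.0523.

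In lower glycolysis 2 of 6 measured members rose and 0 fell by limma, and at an unadjusted p under 0.05 the count that fell was 0 as well. Gapdh, which makes the first NADH of the route and is often used as a reference gene, read 12.45, 12.61 and 12.60 in WT-Ctrl, 12.50, 12.66 and 12.61 in Het-Ctrl and 12.21 and 12.61 in Hom-Ctrl. The NMyc arrays read 12.74 and 12.89 (WT), 12.81 and 12.82 (Het) and 12.91 and 12.80 (Hom). The vectors did not overlap, though the gap between them was small beside that of Hk3 or Aldoc. Gapdh rose by 0.31 (SE 0.09, 1.24-fold, adjusted p = 0.011), and with code run as a term in the fit by 0.23 (adjusted p = 0.0603). Pgam1, a phosphoglycerate mutase, had medians of 10.59 with Ctrl (10.23 to 11.01) and 11.06 with NMyc (10.89 to 11.19), and rose by 0.48 (SE 0.12, 1.39-fold, adjusted p = 0.00498).

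The other 4 did not pass. Pgk1, the first ATP-making enzyme, spanned 11.32 to 12.24 with Ctrl and 11.45 to 11.66 with NMyc (difference -0.24, adjusted p = 0.193). Without WT-Ctrl replicate 3 its difference was -0.33 with an adjusted p of 0.0132. Pkm, the pyruvate kinase of muscle and dividing cells, spanned 12.07 to 12.56 and 12.42 to 12.59 (difference 0.16, adjusted p = 0.161). The enolases Eno2 (0.13, adjusted p = 0.512) and Eno3 (-0.06, adjusted p = 0.745) are known mainly from neurons and muscle.

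Both lactate dehydrogenase subunits rose. Ldha, the subunit that favours lactate formation, read 11.76, 11.97 and 11.64 in WT-Ctrl, 11.77, 12.11 and 11.80 in Het-Ctrl and 11.48 and 11.94 in Hom-Ctrl. Under NMyc the values were 12.39 and 12.47 (WT), 12.39 and 12.31 (Het) and 12.33 and 12.36 (Hom). Every NMyc array was higher than every Ctrl array. Ldha rose by 0.57 (SE 0.10, 1.49-fold, adjusted p = 0.000226). Ldhb, the heart-type subunit, had a Ctrl median of 5.61 (5.29 to 6.43) and an NMyc median of 6.06 (5.91 to 6.51). It rose by 0.42 (SE 0.15, 1.34-fold, adjusted p = 0.0466), close to the threshold, and the call was lost under 12 of 24 alternative settings.

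The transporters held the largest changes of the list, 1 in each direction. Slc16a1 encodes MCT1, which carries lactate and pyruvate together with a proton. It read 7.89, 8.11 and 8.36 in WT-Ctrl, 7.89, 8.04 and 8.09 in Het-Ctrl and 8.01 and 8.52 in Hom-Ctrl. With NMyc it read 9.71 and 9.82 (WT), 9.93 and 9.88 (Het), and 10.11 and 10.04 (Hom). The NMyc arrays of all 3 genotypes stood more than a log2 unit above the highest Ctrl array. The averaged rise was 1.78 (SE 0.10, 3.44-fold, adjusted p = 5.01e-09). Slc16a3 encodes MCT4, the lactate exporter of strongly glycolytic cells. It spanned 10.47 to 11.13 with Ctrl and 10.54 to 11.05 with NMyc, with a difference of -0.04 (95% interval -0.29 to 0.20, adjusted p = 0.823).

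Slc2a3 encodes GLUT3, a glucose transporter with high affinity. It read 10.79, 10.94 and 10.38 in WT-Ctrl, 10.85, 11.12 and 10.27 in Het-Ctrl and 10.57 and 11.44 in Hom-Ctrl. The NMyc arrays read 8.72 and 8.70 (WT), 9.20 and 9.03 (Het), and 9.71 and 9.53 (Hom). All NMyc arrays were lower than all Ctrl arrays. Slc2a3 fell by 1.67 (SE 0.15, 3.18-fold, adjusted p = 4.38e-07). Slc2a1, which encodes the broadly expressed transporter GLUT1, spanned 10.42 to 11.29 with Ctrl and 10.94 to 11.27 with NMyc. Its difference of 0.06 (95% interval -0.20 to 0.32) did not pass (adjusted p = 0.755). So 1 of the 2 glucose transporters fell and 1 of the 2 lactate transporters rose, while the other of each pair did not pass.

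**Figure D2:**
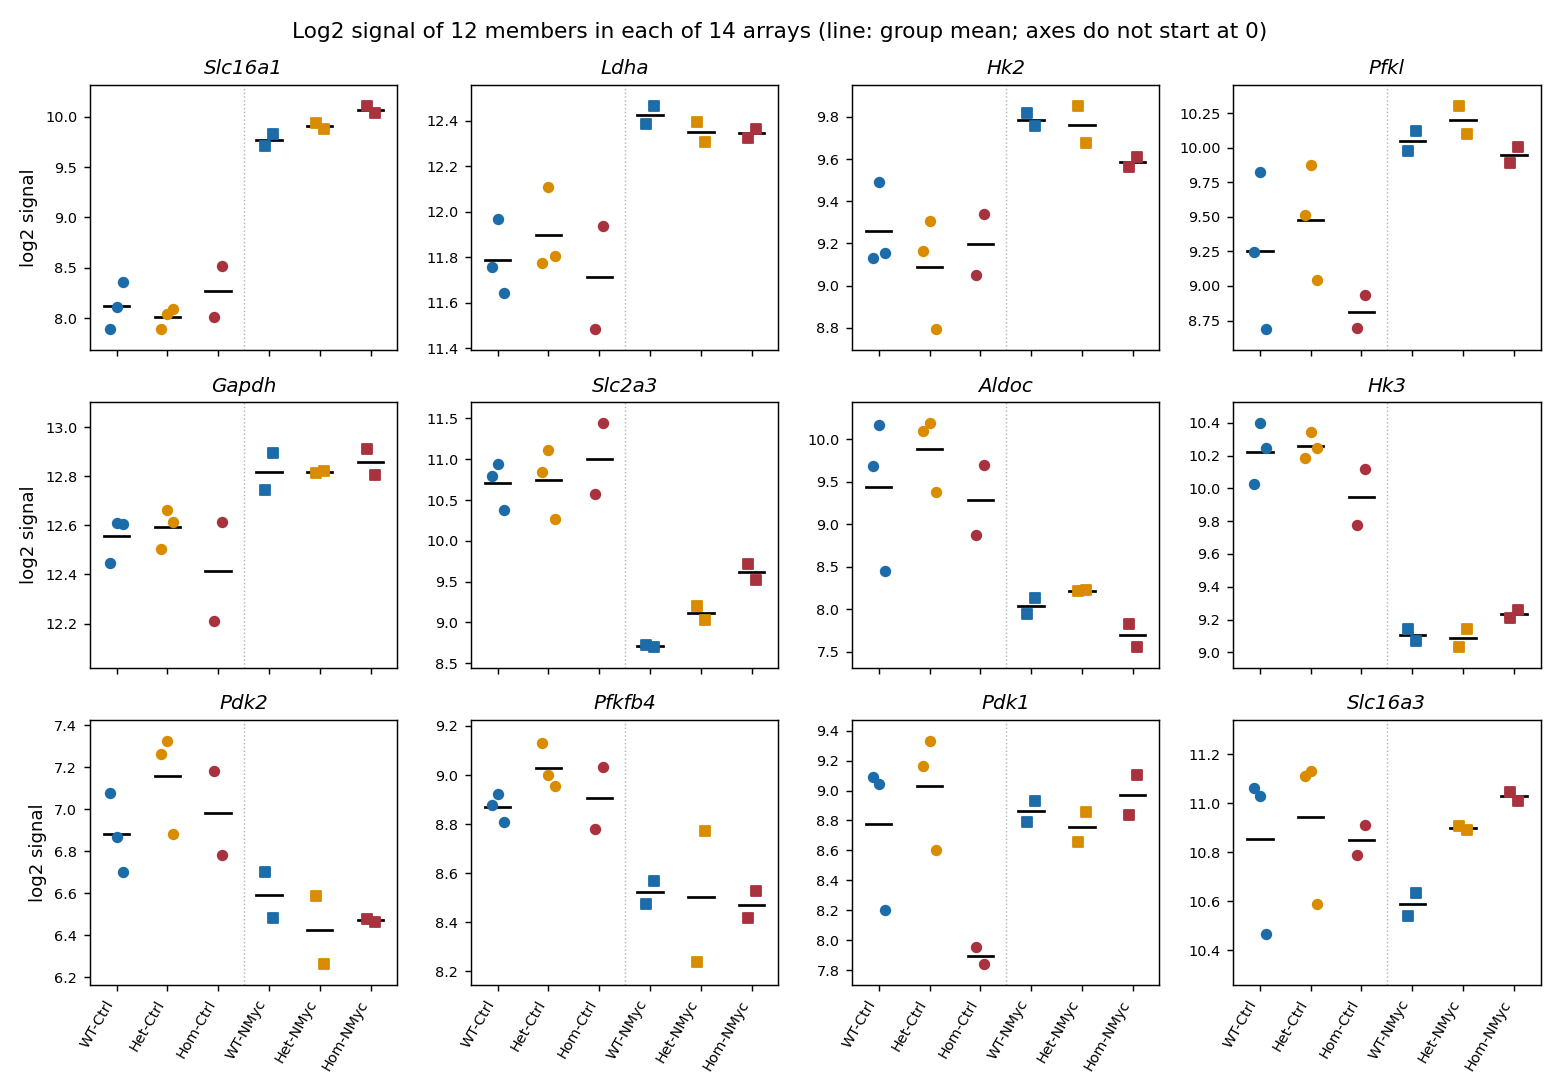
The deposited log2 signal (vertical axis, not starting at 0) of 12 members is plotted for each of the 14 arrays by group, circles for Ctrl and squares for NMyc, with a line at the group mean. In the 10 members of the first 10 panels the vectors do not overlap; Pdk1 and Slc16a3 overlap, and the 2 Hom-Ctrl arrays are the lowest for Pdk1.

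Pyruvate dehydrogenase kinases phosphorylate and switch off the pyruvate dehydrogenase complex, and of the 4 isozymes 1 rose, 1 fell and 2 did not pass. Of all probe sets 18.2% rose and 15.5% fell, so such a count in 4 genes does not stand out. Pdk2 read 7.08, 6.87 and 6.70 in WT-Ctrl, 7.26, 7.33 and 6.88 in Het-Ctrl and 7.18 and 6.78 in Hom-Ctrl. Under NMyc the values were 6.70 and 6.48 (WT), 6.59 and 6.26 (Het) and 6.48 and 6.46 (Hom). The highest NMyc value met the lowest Ctrl value without passing it. Pdk2 fell by 0.51 (SE 0.11, 1.42-fold, adjusted p = 0.00144). Pdk3 had a Ctrl median of 8.16 (7.55 to 8.67) and an NMyc median of 8.57 (8.28 to 8.75), and rose by 0.34 (SE 0.12, 1.26-fold, adjusted p = 0.0494), a call lost under 15 of 24 alternative settings. Pdk4, known from fasting and fatty acid use, did not pass (-0.06, adjusted p = 0.766), and Pdk1, a HIF-1 target, did not pass on average (0.29, 95% interval -0.02 to 0.61, adjusted p = 0.151).

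Fructose 2,6-bisphosphate is the strongest activator of phosphofructokinase. Pfkfb4, which makes and removes it, read 8.88, 8.92 and 8.81 in WT-Ctrl, 9.13, 9.0005 and 8.96 in Het-Ctrl and 8.78 and 9.03 in Hom-Ctrl. With NMyc it read 8.47 and 8.57 (WT), 8.24 and 8.77 (Het) and 8.42 and 8.53 (Hom). The groups touched without overlapping, and Pfkfb4 fell by 0.44 (SE 0.10, 1.35-fold, adjusted p = 0.00188). Tigar, a phosphatase that removes fructose 2,6-bisphosphate, had a Ctrl median of 6.94 (6.59 to 7.11) and an NMyc median of 7.32 (6.90 to 7.53). It rose by 0.41 (SE 0.09, 1.33-fold, adjusted p = 0.00168). Pfkfb3, the isozyme with the highest kinase activity, did not pass (-0.14, adjusted p = 0.335).

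The effect of N-Myc had the same sign in all 3 genotypes for each of the 16 members called on average, and for 21 of all 28. The 16 were called on the mean of these effects, so a shared sign is partly built in. Its share over all probe sets was not counted. Tested within a genotype, 4 members rose and 3 fell in WT, 3 rose and 5 fell in Het, and 4 rose and 3 fell in Hom. Of all probe sets 19.1% passed in WT (10.1% upward, 9.05% downward), 19.1% in Het (11.1% and 8%) and 17.7% in Hom (10.7% and 7.01%). These 3 comparisons use different arrays but share 1 estimate of the spread. Slc16a1 rose in each, by 1.65, 1.90 and 1.81 in WT, Het and Hom, where 6.57% of all probe sets rose in all 3. Hk3 (-1.12, -1.17 and -0.71), Aldoc (-1.40, -1.67 and -1.60) and Slc2a3 (-1.99, -1.63 and -1.39) fell in each, where 3.94% of all probe sets did. Of the others, Ldha rose in WT (0.64, adjusted p = 0.0121) and Hom (0.63), Pfkl in WT (0.79, adjusted p = 0.04999) and Hom (1.13), and Hk2 in WT (0.53, adjusted p = 0.0435) and Het (0.68). Tigar rose in Het (0.47), Pdk2 (-0.73) and Pfkfb4 (-0.53) fell in Het, and Pdk1 rose in Hom (1.07).

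Such counts within a genotype rest on few arrays. In WT the 7 calls became 4 without WT-Ctrl replicate 1 and 3 without either WT-NMyc array. In Het the 8 became 5 without Het-NMyc replicate 1, and in Hom the 7 became 4 without Hom-NMyc replicate 1 and 3 without Hom-NMyc replicate 2. Slc16a1 and Slc2a3 kept their call in each genotype under all 24 alternatives, as did Hk3 in WT and Het and Aldoc in Het.

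A call in 1 genotype and not in another does not show a difference, so the difference between effects was tested directly. By limma 0 of 28 members passed when the effect in Hom was set against that in WT (0.0811% of all probe sets passed) or in Het (0.0315%), and 0 passed for Het against WT (0% of all probe sets). At an unadjusted p under 0.05, Pdk1 was the single member for Hom minus WT (0.99, adjusted p = 0.429) and for Hom minus Het (1.35, adjusted p = 0.348), and there were 0 for Het minus WT.

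**Figure D3:**
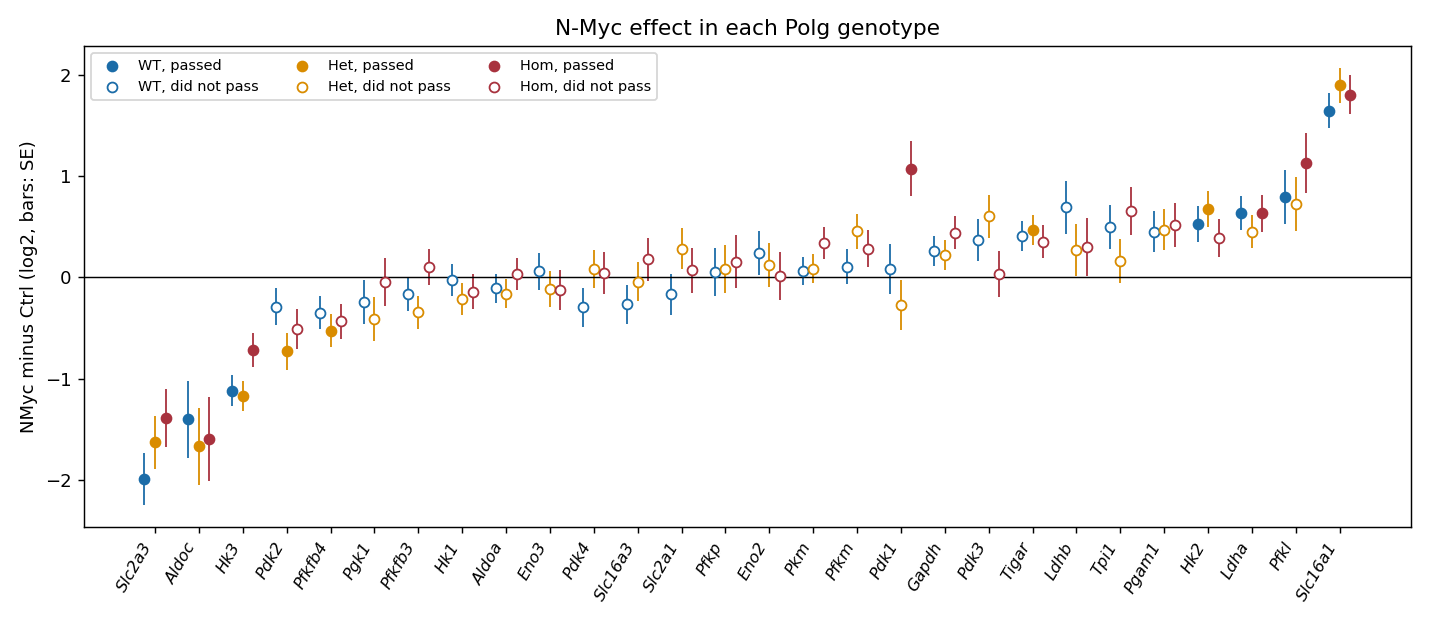
The log2 difference between NMyc and Ctrl arrays (vertical axis, bars are the SE of the model) is shown for each of 28 members in WT, Het and Hom cells, ordered by the averaged effect, with filled points where the comparison passed. Slc2a3, Aldoc and Hk3 at the left and Slc16a1 at the right are filled in all 3 genotypes, while Pdk1 is filled in Hom only, where it reads 1.07.

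Polg genotype was compared within each vector. With the Ctrl vector, Pdk1 was lower in Hom than in Het cells and was the only 1 of 28 members called in any comparison of genotypes (2.4% of all probe sets passed here, 1.34% upward and 1.06% downward). It read 9.09, 9.04 and 8.20 in WT-Ctrl, 9.16, 9.33 and 8.60 in Het-Ctrl, and 7.95 and 7.84 in Hom-Ctrl. Both Hom-Ctrl arrays lay below every other Ctrl array, and the third replicates of WT-Ctrl and Het-Ctrl lay between. Hom minus Het was -1.14 (SE 0.25, 95% interval -1.66 to -0.61, 2.20-fold, adjusted p = 0.0268). Hom minus WT was -0.88 and did not pass (adjusted p = 0.0634). Set against arrays of the same code run, Hom-Ctrl differed from Het-Ctrl by -1.21 and -1.49 and from WT-Ctrl by -1.13 and -1.21. With code run as a term in the fit, both differences passed (-1.24, adjusted p = 0.0192, and -0.98, adjusted p = 0.0409).

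Lineage markers differed in the same Hom-Ctrl arrays, of which replicate 1 is the array in doubt by its Mycn level. Over all probe sets 3.91% passed for Hom against WT with Ctrl and 2.4% for Hom against Het with Ctrl. The neutrophil list had a mean log2 signal of 11.20 to 11.38 in Hom-Ctrl, 11.65 to 11.82 in WT-Ctrl and 11.70 to 11.88 in Het-Ctrl, and 3 of 13 genes, Ltf, Mmp8 and Retnlg, were lower in Hom than in WT and than in Het. The mast cell and basophil list had a mean of 10.66 to 10.91 in Hom-Ctrl, 10.40 to 10.55 in WT-Ctrl and 10.27 to 10.49 in Het-Ctrl, and 3 of 9 genes, Fcer1a, Ms4a2 and Gata2, were higher in Hom in both comparisons. Of the monocyte and macrophage list 2 of 9 were lower in Hom than in WT. Its mean was 8.86 to 9.65 in Hom-Ctrl, 9.73 to 10.20 in WT-Ctrl and 9.23 to 10.02 in Het-Ctrl. Hom-Ctrl thus overlapped Het-Ctrl but not WT-Ctrl. The part of these lineages in the Pdk1 difference and the other Hom differences was not tested.

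The Pdk1 call depended on single arrays. Hom against Het gave an adjusted p of 0.0742 without Het-Ctrl replicate 1, 0.0796 without Het-Ctrl replicate 2, 0.079 without the array labelled Hom-Ctrl replicate 1 and 0.202 without Hom-Ctrl replicate 2, with differences of -1.07, -0.99, -1.19 and -1.08. With the NMyc vector Pdk1 read 8.79 and 8.93 in WT, 8.66 and 8.86 in Het, and 8.83 and 9.11 in Hom, so the genotypes overlapped there. Within Hom cells Pdk1 was higher with NMyc by 1.07 (SE 0.27, 2.10-fold, adjusted p = 0.0118). This rise uses the same Hom-Ctrl arrays as the genotype comparison and is not independent of it. It had an adjusted p of 0.0634 without Hom-Ctrl replicate 2 and of 0.111 without Hom-NMyc replicate 2.

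For Hom against WT with Ctrl, limma called 0 of 28 members (3.91% of all probe sets passed), and 2 had an unadjusted p under 0.05, Pdk1 and Pdk3. Pdk3 read 8.15, 8.06 and 7.65 in WT-Ctrl and 8.67 and 8.60 in Hom-Ctrl, a difference of 0.68 (adjusted p = 0.0883). Without WT-Ctrl replicate 3, Pdk1 passed (adjusted p = 0.0109), and without Het-Ctrl replicate 3, which enters only through the spread, both genes did. For Het against WT with Ctrl, 0 members passed by limma (0% of all probe sets) and 0 had an unadjusted p under 0.05. With NMyc, 0 members passed in any of the 3 genotype comparisons by limma (0% of all probe sets in each). At an unadjusted p under 0.05 there were Slc2a3 (0.91, adjusted p = 0.383) and Pfkm (0.42) for Hom minus WT, Tigar (-0.42) for Hom minus Het, and 0 for Het minus WT. The Slc2a3 values with NMyc, given above, did not overlap between genotypes and ran from WT over Het to Hom, with group means of 8.71, 9.12 and 9.62. Slc16a1, Slc16a3, Pfkm and Aldoa showed the same order without overlap, though none of these genotype differences passed. For Pfkm the highest Het value was 7.612 and the lowest Hom value 7.614, and for Aldoa they were 12.5295 and 12.5317. How often all probe sets show it was not counted, and each of these groups had 2 arrays.

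Many members shared a pattern among the 8 Ctrl arrays, which was noticed after their values were seen. In 8 of 28 members (28.6%) the 4 lowest Ctrl arrays were WT-Ctrl replicate 3, Het-Ctrl replicate 3 and both Hom-Ctrl arrays, against 1.94% of all probe sets. The 8 were Pfkl, Aldoa, Tpi1, Pgk1, Pkm, Slc2a1, Slc16a3 and Pdk1. The mean log2 signal of 15 genes known to respond to hypoxia and outside glycolysis, among them Vegfa and Bnip3l, was 8.56 to 8.68 in the first and second replicates of WT-Ctrl and Het-Ctrl. It was 7.98 and 8.03 in replicate 3 of these groups, 8.25 and 8.22 in Hom-Ctrl, and 7.88 to 8.01 in the NMyc arrays. The part of this shift in the genotype and N-Myc differences was not tested. For Hom against Het with Ctrl, 6 of 28 members had an unadjusted p under 0.05 by limma (14.9% of all probe sets), and only Pdk1 passed after adjustment. Pfkl (-0.66), Tpi1 (-0.51) and Pgk1 (-0.52) were lower in Hom and, like Pdk1, belong to this set. The set was picked by its low Hom-Ctrl arrays, so that direction was built in. Pdk3 (0.61) and Pfkm, both outside the set, were higher in Hom.

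The spread within groups was larger with Ctrl than with NMyc in 25 of 28 members (89.3%), against 71.6% of all probe sets. The median SD within groups was 0.231 with Ctrl and 0.102 with NMyc over the members, and 0.208 and 0.146 over all probe sets. Pgk1 gave an SD of 0.34 with Ctrl and 0.05 with NMyc, and Tpi1 0.34 and 0.07.

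**Figure D4:**
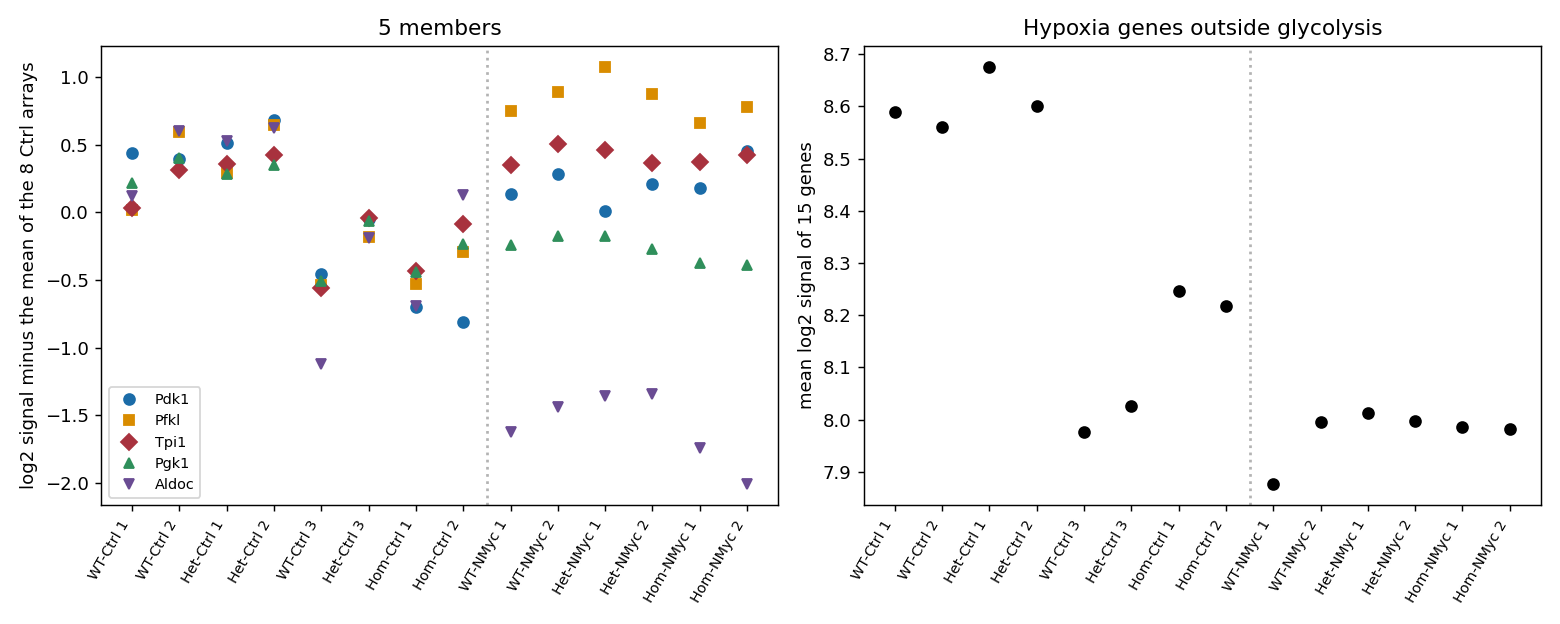
Left, log2 signal of Pdk1, Pfkl, Tpi1, Pgk1 and Aldoc in each array minus that gene's mean over the 8 Ctrl arrays; right, mean log2 signal of 15 hypoxia genes per array; a dotted line separates Ctrl from NMyc arrays, and the vertical axes do not start at 0. The third replicates of WT-Ctrl and Het-Ctrl and both Hom-Ctrl arrays lie below the other 4 Ctrl arrays in the right panel (7.98 to 8.25 against 8.56 to 8.68), and likewise for Pdk1, Pfkl, Tpi1 and Pgk1 in the left panel.

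Routes that branch from glycolysis were described from 10 further lists, by the averaged effect of N-Myc. Over the 10 lists 29 of 113 measured genes rose and 25 fell, 47.8% in all, against 33.6% of all probe sets (18.2% upward and 15.5% downward). Among genes that bring pyruvate into the mitochondria, 6 of 10 rose (60%) and 1 fell (median 0.53, against -0.02 for all probe sets). They included Dlat (0.98), Pdhx (0.84) and Dld (0.62), parts of the pyruvate dehydrogenase complex, and Pdpr (0.89), a regulator of its phosphatase, while Pcx, pyruvate carboxylase, fell (-0.58). Of the shuttles that carry NADH electrons into mitochondria, 7 of 10 rose (70%) and 1 fell (median 0.57). The aspartate and glutamate carriers Slc25a13 (1.38) and Slc25a12 (1.02), the transaminase Got2 (1.27) and the malate dehydrogenase Mdh2 (0.68) rose, and Gpd2 of the glycerol phosphate shuttle fell (-0.33). Both routes serve mitochondrial use of the products of glycolysis.

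In the pentose phosphate pathway 6 of 10 rose (60%, against 18.2% of all probe sets) and 0 fell by limma (median 0.27), with Rbks, ribokinase (1.19), the ribose phosphate users Prps1 (1.04) and Prps2 (0.64), and H6pd (0.48). At an unadjusted p under 0.05 those that fell numbered 0 too. Of the genes of glycogen metabolism 6 of 16 fell (37.5%, against 15.5%) and 0 rose by limma (median -0.19), and at an unadjusted p under 0.05 there were 8 and 0. Those that fell included Gyg, the primer protein of glycogen (-0.89), Pygl, a glycogen phosphorylase (-0.60), Pgm2l1 (-0.43) and Phka2, a subunit of phosphorylase kinase (-0.43). Within Hom cells the balance was another: Gbe1 (0.73) and Gys1 (0.60) rose and Gyg (-0.99) fell. For Gbe1 the effect in Hom minus that in WT was 1.23 (adjusted p = 0.173) and for Gys1 0.73 (adjusted p = 0.316), and neither passed. In gluconeogenesis 2 of 7 rose (28.6%), G6pc3 (0.95) and Slc37a4 (0.37), which together free glucose from glucose 6-phosphate in the endoplasmic reticulum.

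Of the isozymes of glycolysis outside the list 2 of 10 fell (20%, near the 15.5% of all probe sets), Adpgk, an ADP-dependent glucokinase (-0.74, adjusted p = 1.84e-05), and Pgam2 (-0.33), with a median of -0.03. The Adpgk difference was -1.19 (WT), -1.05 (Het) and 0.01 (Hom), but the effect in Hom minus that in WT (1.21) did not pass (adjusted p = 0.0909). Of the other hexose transporters 1 of 10 fell (10%, below that share), Slc2a6 (-0.49). Of the other monocarboxylate transporters and their partners 2 of 8 rose (25%), Slc16a10, a carrier of aromatic amino acids (1.07), and Slc16a6 (0.66), and Emb, a chaperone protein of such transporters, fell (-0.22). Of 17 regulators of glycolysis genes 5 rose and 5 fell (29.4% each, median -0.06). Beside Mycn (4.31), Myc fell (-1.32), as did Txnip (-1.79) and Arrdc4 (-2.10), arrestin-like proteins whose genes respond to glucose and which restrain glucose uptake. Hif1a (-0.55), named after its values were seen, fell too. Among the hypoxia genes outside glycolysis 8 of 15 fell (53.3%) and 1 rose (median -0.39). In code run 3 their mean signal was alike with both vectors, 7.976 in WT-Ctrl and 7.995 in WT-NMyc, and 8.026 in Het-Ctrl and 7.997 in Het-NMyc. The other Ctrl arrays were higher, as given above. Ndrg1 (-1.39), Bnip3l (-0.83) and Ddit4 (-0.72) fell, and the carbonic anhydrase Car12 rose (1.36).

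In the same lists with the Ctrl vector, 5 of 113 genes passed for Hom against WT (4.42%, against 3.91% of all probe sets) and 8 of 113 for Hom against Het (7.08%, against 2.4%). These use the same Hom-Ctrl arrays as the N-Myc effect in Hom. Adpgk was lower in Hom than in WT (-0.97) and Het (-0.92), as was Gbe1, the glycogen branching enzyme (-1.01 in each), and Bnip3l (-0.59 and -0.70). Car12 was higher in Hom than in WT (1.36) and Het (0.97). Pdpr was lower in Hom than in WT (-0.70), and Pgls (-0.73), Gys1 (-0.62), Pygl (-0.53) and Vegfa (-0.68) were lower in Hom than in Het. Those were all the calls of the 10 lists in these comparisons, and Het against WT gave 0 by limma, with 3 genes at an unadjusted p under 0.05.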

How the data were processed

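RNA of 14 mouse HPC samples was hybridised to Affymetrix whole-transcript arrays. Per the submitters' processing notes, the authors used Affymetrix Expression Console, and the deposited values are signals of probe sets whose log2 scale was read from their range. Version and normalization were not given in the sources used here. Scaling before deposit could have removed a shift shared by most transcripts. Of 28846 probe sets, 6640 array controls were left out. Symbols came from the platform annotation. In limma 3.58.1 (R 4.3.3), 1 linear model of the 6 groups used every array (8 residual and 7.3 prior degrees of freedom). It gave 13 two-sided comparisons with Benjamini-Hochberg adjustment over 22206 probe sets, called at an adjusted p under 0.05. The fit was tested on simulated data. Every member with a probe set is described, with up to 4 called genes of smallest p per pathway list. Members and lists were chosen with earlier results of these data known. Replicate numbers paired WT-Ctrl with Het-Ctrl (correlations of deviations 0.235, 0.266 and 0.249), where the block left the count of members called at 0; in all, 7 of 31 same-numbered pairs exceeded 0.1, and other groups were not taken as paired. For arrays, their number limits the precision. Alternatives were another normalization, control filter, dim filter, variance prior, code run, replicate block and leaving out each array.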

Additional observations from a re-analysis of the deposited data

How the results depend on the processing

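The count of members called for the averaged N-Myc effect was 16 and ran from 13 to 17 over 24 alternatives (13 to 16 with each array left out in turn). Of these 16 members 11 kept their call under all 24, and Pfkm, Ldhb, Pdk3, Tpi1 and Gapdh lost it under some. Leaving out each array in turn gave 3 to 7 called members in WT (main count 7), 5 to 10 in Het (8) and 3 to 8 in Hom (7), 0 to 2 for Hom against WT with Ctrl (0) and 0 to 1 for Hom against Het with Ctrl (1). With only code runs 2 and 3 the count in Hom was 4 and that for Hom against Het with Ctrl 0, a setting with fewer arrays. With only the AFFX control sets left out, Hom against Het with Ctrl gave 0. An intensity trend in the variance prior and code run as a term each gave 1 member, Pdk1, for Hom against WT with Ctrl. With the replicate number as a block, Hom against WT with Ctrl gave 1 (Pdk1, -1.13) and Hom against Het with Ctrl 4 (Pfkl, Tpi1, Pgk1 and Pdk1). The N-Myc effect in Hom minus that in Het gave 1 (Pdk1, 1.60, limma adjusted p 0.0482). Both Hom-Ctrl arrays share a code run with the same-numbered WT-Ctrl and Het-Ctrl arrays. Their deviations correlated with these at 0.194 and 0.142 for replicate 1 and at 0.0259 and 0.0953 for replicate 2. NMyc arrays share only a number with same-numbered Ctrl arrays. The cause of these shifts in the counts was not tested. Of 1248 values of single members under alternatives, 1121 counted as the same, 117 no longer passed and 8 newly passed. A further 2 without a call changed sign by at least the SE of the main fit, and 0 with a call changed sign. Uncalled values that changed sign by less than this SE counted as the same. The averaged effects of Eno3 (-0.13 to 0.02), Slc2a1 (-0.06 to 0.14) and Slc16a3 (-0.17 to 0.05) thus took both signs over the alternatives. All 28 members read above the negative controls' median in every array, and each group had 2 or 3 arrays, which limits the tests.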
